A study of Mus musculus with 8 samples.

Results

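The p53 target genes described here are 10 genes that the transcription factor p53 is known to switch on: Cdkn1a, Mdm2, Ccng1, Bbc3, Bax, Trp53inp1, Sesn1, Gadd45a, Phlda3 and Zmat3. Livers came from 8 C57BL/6 males, 4 labelled MTAP+/- and 4 labelled MTAP+/+, aged 92 to 101 days, with 1 Affymetrix array each. MTAP+/- mice carry 1 altered copy of Mtap, the gene of the enzyme that salvages methylthioadenosine, a by-product of polyamine synthesis. The labels used here state neither the kind of alteration nor whether mice shared a litter or a collection day, so p-values measure the spread between these 8 samples. Members were chosen by symbol: every probe set, a group of array probes for 1 transcript region, whose annotation gave exactly 1 gene symbol from this list. This found 18 probe sets for 9 of the 10 genes, of 45037 probe sets tested, and the expression of Bax was not analysed here. Values are RMA signals on a log2 scale, and a change is the MTAP+/- mean minus the MTAP+/+ mean.

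p53 is held at a low level in unstressed cells by Mdm2, a ubiquitin ligase that p53 itself induces, so that the pair forms a feedback loop. Damage to DNA or loss of nutrients frees p53, which then raises genes that stop the cell cycle, repair DNA, restrain growth signalling or start cell death. Several of these genes also respond to other regulators in liver, so their transcript levels are not a reading of p53 alone.

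The binding site of p53 is 2 copies of a short half-site, each built around the core CNNG. Its presence near the starts of the members is described here, though they were listed by name and not by such a site. Windows of 300 bases, from 250 bases before to 50 bases after an annotated start, were taken from RefSeq (GRCm38.p6) for 8 of the 10 genes, 12 windows in all. The p53 half-site consensus of 10 bases reads the same on both strands, so 1 search covers both. It was found without mismatch in windows of 6 of these 8 genes, against 9.55% of all 27025 genes with a window. A full site was counted where 2 half-sites stood side by side over 20 bases with both cores intact and at most 2 mismatches. Full sites were found for 2 of the 8 genes, Cdkn1a and Ccng1, against 0.392% of all genes. A match of letters is a description and does not show binding. The Cdkn1a window is that of an upstream start, 2790 bases before the window of the downstream start, which held no half-site. In the lines below capitals mark the full site, which had 1 mismatch in each gene and lay at -51 to -32 for Cdkn1a and at -195 to -176 for Ccng1, counted from the start with no position 0.
Cdkn1a, chr17:29090729-29091028, plus strand: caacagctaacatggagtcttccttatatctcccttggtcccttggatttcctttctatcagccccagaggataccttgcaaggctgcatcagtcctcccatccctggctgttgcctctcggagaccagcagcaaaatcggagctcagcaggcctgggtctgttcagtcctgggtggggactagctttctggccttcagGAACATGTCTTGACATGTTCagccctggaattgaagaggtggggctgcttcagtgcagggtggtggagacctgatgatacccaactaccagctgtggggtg
Ccng1, chr11:40755237-40755536, minus strand: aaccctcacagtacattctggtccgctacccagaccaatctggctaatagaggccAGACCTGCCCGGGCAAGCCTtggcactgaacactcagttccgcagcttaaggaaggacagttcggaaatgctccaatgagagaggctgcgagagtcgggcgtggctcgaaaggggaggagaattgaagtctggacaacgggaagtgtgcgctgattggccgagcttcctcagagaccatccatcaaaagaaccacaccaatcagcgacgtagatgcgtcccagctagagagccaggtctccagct

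Shorter stretches are shown for 4 members whose windows held a weaker match, with capitals for the match and 10 flanking bases on each side. Bbc3 held a side-by-side pair with 3 mismatches at -97 to -78, a looseness met by 1.38% of all windows. Sesn1 held such a pair too, beginning at its half-site. Mdm2, Gadd45a and Sesn1 held a half-site without mismatch, which 8.36% of all windows did. Bax, whose expression was not analysed, held one too, at -201 to -192, and its stretch is not shown.
Bbc3, chr7:16309333-16309632, plus strand: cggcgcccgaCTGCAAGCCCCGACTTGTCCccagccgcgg
Mdm2, chr10:117710709-117711008, minus strand: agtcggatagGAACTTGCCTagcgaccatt
Gadd45a, chr6:67037358-67037657, minus strand: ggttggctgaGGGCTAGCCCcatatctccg
Sesn1, chr10:41887189-41887488, plus strand: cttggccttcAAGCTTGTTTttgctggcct

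The labels held for the targeted gene and the tissue. Each of the 4 Mtap probe sets was lower in all MTAP+/- livers, at 32.2% to 57.6% of the MTAP+/+ level (limma adjusted p 0.00443 to 0.0414). All 8 measured hepatocyte markers lay above the median of all values (3.95), and their mean signal spanned 12.05 to 12.31. On component 1 of a principal component analysis (28.27% of the variance) MTAP+/- R2 lay with MTAP+/+ R1, R2 and R3 at 3.58 to 35.57. MTAP+/+ R4 lay there with the other MTAP+/- livers at -24.91 to -23.43. Component 2 (21.99%) held the genotypes apart, with MTAP+/- livers at -44.12 to -4.03 and MTAP+/+ livers at 11.25 to 29.47.

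No member passed the test across all probe sets. With limma and Benjamini-Hochberg adjustment over 45037 probe sets, 0 of 18 member probe sets had an adjusted p under 0.05 (lowest 0.506), where 0.0355% of all probe sets did. At an unadjusted p under 0.05 there were 2 of 18, both of Cdkn1a and both lower in MTAP+/- liver, and 0 were higher. Among all probe sets 8.41% were under that mark, 3.85% lower and 4.56% higher. The median change over the 18 was -0.12 against -0.01 for all probe sets, with 10 of 18 below 0 against 52.7% of all. For 0 of 18 were all livers of one genotype above all of the other, as they were for 4.35% of all probe sets, 2.12% with MTAP+/- higher and 2.22% with MTAP+/- lower. A change over 0.5 in size was seen at 2 of 18, again Cdkn1a, and at 2.98% of all. The plot of signals by mouse shows the overlap in every panel.

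**Figure D1:**
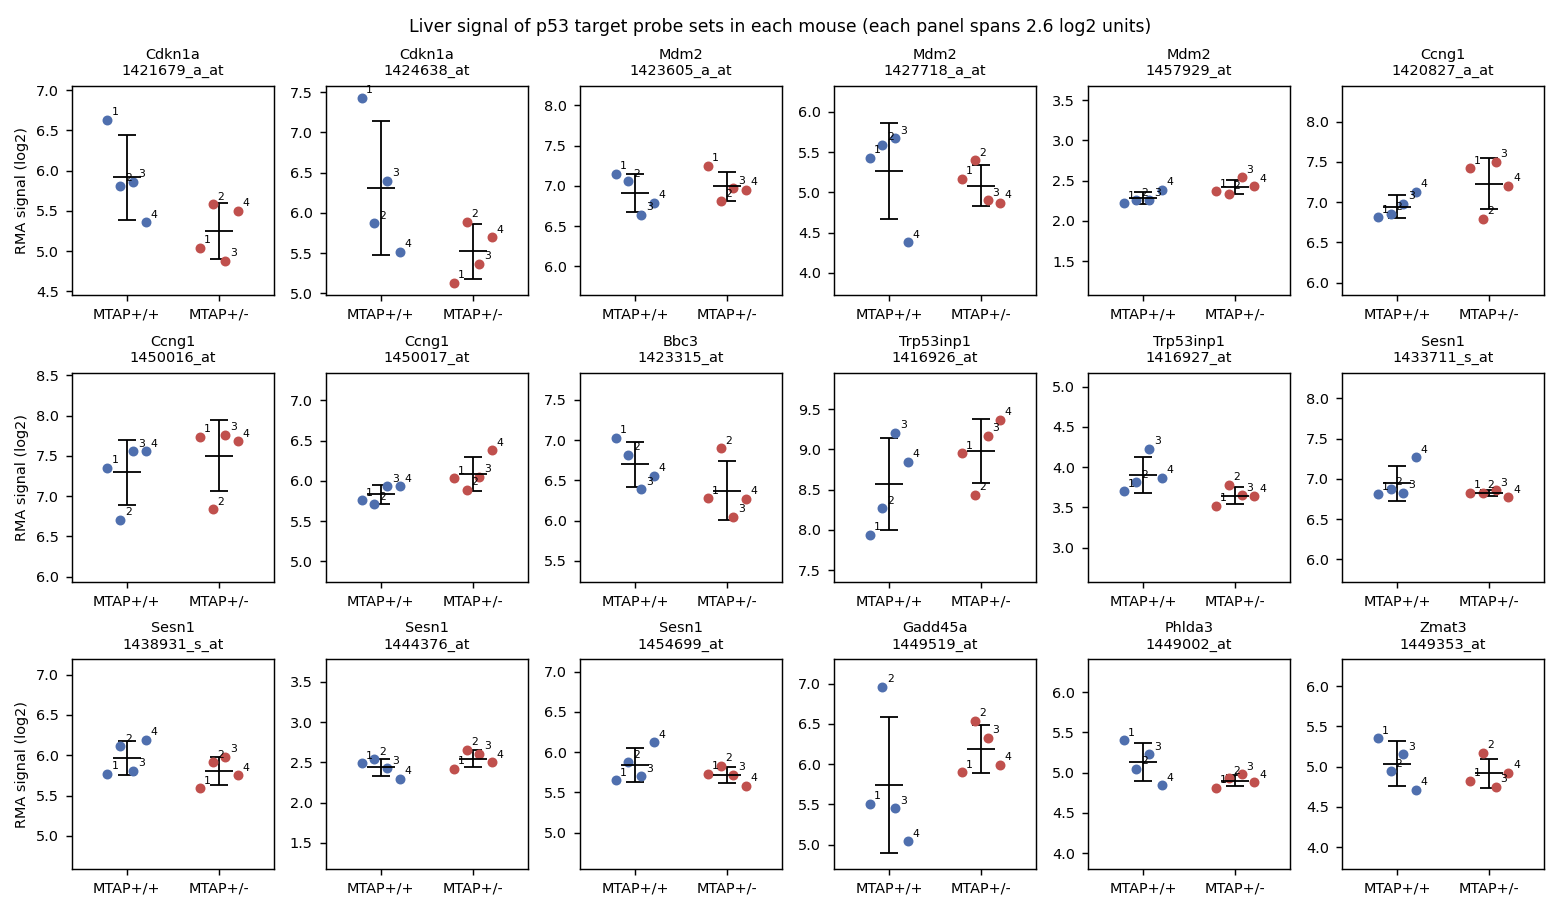
RMA signal (log2, vertical axis) of each of the 18 p53 target probe sets in MTAP+/+ (left) and MTAP+/- (right) livers, 1 point per mouse with its replicate number, black bars for mean and SD (n = 4). The genotypes overlap in all 18 panels, and MTAP+/+ replicate 1 stands highest at both Cdkn1a probe sets.

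Cdkn1a encodes p21, the inhibitor of cyclin-dependent kinases through which p53 halts the cell cycle. Its probe set 1421679_a_at read 5.04, 5.58, 4.88 and 5.50 in MTAP+/- R1 to R4, and 6.63, 5.81, 5.86 and 5.36 in MTAP+/+ R1 to R4. All MTAP+/- livers were therefore below MTAP+/+ R1, R2 and R3, while MTAP+/+ R4 lay among them. The mean was 5.25 ± 0.34 (SD, n = 4) against 5.91 ± 0.53, a change of -0.66 ± 0.25 (SE), or 63.1% of the MTAP+/+ level (95% interval 43.1 to 92.5). The unadjusted limma p was 0.0228, the adjusted p 0.506, and the exact two-sided permutation p 0.0857, where 0.0286 is the smallest that 4 against 4 mice allow.

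The second Cdkn1a probe set, 1424638_at, read 5.13, 5.89, 5.37 and 5.70 in MTAP+/- livers and 7.43, 5.87, 6.40 and 5.52 in MTAP+/+ livers. MTAP+/+ R1 and R3 were the highest livers at both probe sets, and MTAP+/- R1 and R3 the lowest. The change was -0.78 ± 0.35 (SE), or 58.2% of the MTAP+/+ level (95% interval 34.1 to 99.3; limma adjusted p = 0.589, exact permutation p = 0.143). Leaving out 1 mouse moved these values both ways. Without MTAP+/+ R1 the changes were -0.43 at 1421679_a_at and -0.41 at 1424638_at (unadjusted limma p 0.0588 and 0.114). Without MTAP+/- R1 the same p-values were 0.0608 and 0.122, and without MTAP+/- R3 they were 0.0702 and 0.0968. At 1424638_at the p was also above 0.05 without MTAP+/+ R3 (0.0926) and without MTAP+/- R4 (0.0617). Without MTAP+/+ R4 the changes were larger, -0.85 and -1.04 (unadjusted limma p 0.00502 and 0.00987), and without MTAP+/- R2 they were -0.77 and -0.90 (0.0138 and 0.0349). Both changes stayed below 0 under each of 16 alternatives, from -0.96 to -0.43 and from -1.17 to -0.41, with limma adjusted p never under 0.0969. Among these, the other eBayes settings, the filters and the replicate block cannot move a change, only its p. The spread within genotypes was also large, above that of 96.4% and 98.9% of all probe sets.

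Mdm2, the ligase that restrains p53, gave no single direction. Probe set 1423605_a_at read 7.25, 6.81, 6.97 and 6.95 in MTAP+/- and 7.15, 7.06, 6.64 and 6.79 in MTAP+/+ livers. The genotypes interleaved, and the interval of the difference ran from 85.8% to 131% of the MTAP+/+ level (change 0.09, limma adjusted p = 0.909). Probe set 1427718_a_at read 5.17, 5.40, 4.90 and 4.87 against 5.43, 5.59, 5.67 and 4.38. Here MTAP+/+ R4 was the lowest of all 8 livers and the other MTAP+/+ livers were the highest, so that the change of -0.18 became -0.48 without MTAP+/+ R4 (unadjusted limma p 0.495 and 0.00883, adjusted p 0.895 and 0.312). Without MTAP+/+ R3 it was instead -0.05 and without MTAP+/+ R2 -0.07 (unadjusted limma p 0.861 and 0.794). The third, 1457929_at, stayed between 2.22 and 2.54 in all livers, near the lowest signals of the arrays, where RMA compresses differences.

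Ccng1, cyclin G1, is a p53 target that recruits a phosphatase to Mdm2, and all 3 of its probe sets had a higher mean in MTAP+/- liver. Probe set 1450017_at read 6.03, 5.89, 6.05 and 6.38 in MTAP+/- and 5.76, 5.71, 5.93 and 5.93 in MTAP+/+ livers. MTAP+/- R2 lay within the MTAP+/+ range and the other MTAP+/- livers above it. The change was 0.26 ± 0.12 (SE; 95% interval -0.01 to 0.52, limma adjusted p = 0.609, exact permutation p = 0.0857), and 0.16 without MTAP+/- R4. Probe set 1420827_a_at read 7.42, 6.79, 7.50 and 7.20 against 6.81, 6.85, 6.98 and 7.13, a change of 0.28 ± 0.15. With all mice the limma adjusted p there was 0.669 (unadjusted 0.092, exact permutation p = 0.171). MTAP+/- R2 was below every MTAP+/+ liver at this probe set, and without it the change was 0.43 (limma adjusted p = 0.254, unadjusted 0.00504). Without MTAP+/- R3 the change was instead 0.19, and without MTAP+/- R1 0.22 (unadjusted limma p 0.247 and 0.217).

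The third Ccng1 probe set, 1450016_at, read 7.74, 6.84, 7.76 and 7.68 in MTAP+/- and 7.35, 6.71, 7.56 and 7.56 in MTAP+/+ livers. Replicate 2 of each genotype stood far below the rest. The change was 0.21 (limma adjusted p = 0.869), and it lay between 0.01 (without MTAP+/+ R2) and 0.43 (without MTAP+/- R2) when 1 mouse was left out. Ccng1 and Cdkn1a, the 2 members with a full p53 site in a start window, thus had mean differences of opposite sign at all 5 of their probe sets, none of them past the adjusted threshold.

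Trp53inp1 encodes a nuclear protein that aids p53-driven cell death and autophagy. Its probe set 1416926_at read 8.95, 8.44, 9.17 and 9.37 in MTAP+/- and 7.94, 8.27, 9.21 and 8.85 in MTAP+/+ livers. MTAP+/+ R1 and R2 were the lowest, and MTAP+/+ R3 was exceeded by MTAP+/- R4 alone. The change was 0.42 ± 0.28 (SE; limma adjusted p = 0.735), 0.21 without MTAP+/+ R1 and 0.63 without MTAP+/+ R3. Without MTAP+/- R2 it was 0.60 (unadjusted limma p 0.0465, against 0.159 with all mice). The other probe set, 1416927_at, pointed the other way, at 3.52 to 3.78 in MTAP+/- and 3.70 to 4.23 in MTAP+/+ livers (change -0.26 ± 0.12, limma adjusted p = 0.622, exact permutation p = 0.0571). Without MTAP+/+ R3 this change was -0.15. It lay close to the median of all values, and which probe set better follows the transcript was not tested.

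Bbc3 encodes PUMA, a killer protein of the BCL2 family that frees the pore former Bax. Its probe set 1423315_at read 6.28, 6.90, 6.05 and 6.27 in MTAP+/- and 7.03, 6.82, 6.39 and 6.56 in MTAP+/+ livers. MTAP+/- R1, R3 and R4 were below every MTAP+/+ liver, while MTAP+/- R2 was second only to MTAP+/+ R1. The change was -0.33 ± 0.19 (SE; 79.8% of the MTAP+/+ level, 95% interval 59.4 to 107; limma adjusted p = 0.697), and -0.50 without MTAP+/- R2 (limma adjusted p = 0.288, unadjusted 0.00877). It was -0.22 without MTAP+/+ R1 and also without MTAP+/- R3 (unadjusted limma p 0.303 for each).

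**Figure D2:**
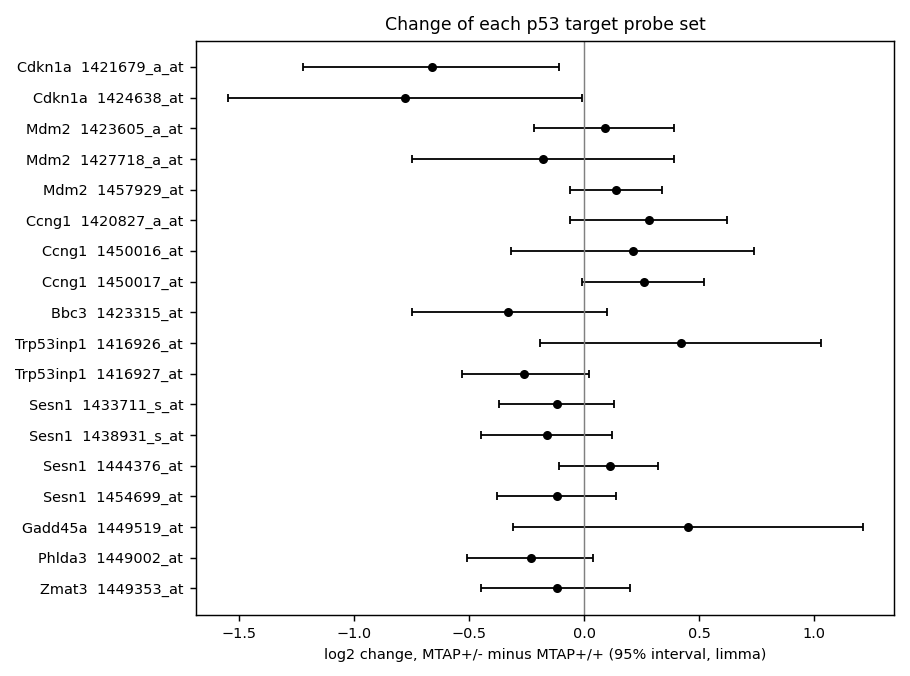
Log2 change (MTAP+/- minus MTAP+/+, horizontal axis) of each p53 target probe set with its 95% interval from limma (n = 4 mice per genotype). The 2 Cdkn1a intervals lie below 0, at -1.22 to -0.11 and -1.55 to -0.01, and the other 16 intervals include 0.

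Gadd45a, which binds PCNA and stress kinases and takes part in growth arrest and DNA repair, varied widely from mouse to mouse, with a spread within genotypes above that of 98.9% of all probe sets. It read 5.90, 6.54, 6.33 and 5.99 in MTAP+/- and 5.51, 6.96, 5.45 and 5.04 in MTAP+/+ livers. MTAP+/+ R2 was the highest of all and the other MTAP+/+ livers were the lowest, below every MTAP+/- liver. The change was 0.45 ± 0.34 (SE; limma adjusted p = 0.780, exact permutation p = 0.371), and 0.86 without MTAP+/+ R2 (limma adjusted p = 0.251, unadjusted 0.000806). Without MTAP+/+ R4 it was 0.22, and with MTAP+/- R2 and MTAP+/+ R4 both left out 0.10.

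Sesn1 encodes sestrin 1, which restrains the growth kinase complex mTORC1 when leucine is short. Its probe set 1433711_s_at read 6.83, 6.83, 6.86 and 6.77 in MTAP+/- and 6.81, 6.87, 6.83 and 7.27 in MTAP+/+ livers. Apart from MTAP+/+ R4, all 7 livers lay within 6.77 to 6.87. The changes at this probe set, 1438931_s_at and 1454699_at were -0.12, -0.16 and -0.12 (adjusted limma p 0.832, 0.789 and 0.842), and -0.01, -0.09 and -0.03 without MTAP+/+ R4. MTAP+/+ R4 was the highest liver at all 3. The interval at 1433711_s_at ran from 77.1% to 110% of the MTAP+/+ level. The fourth probe set, 1444376_at, spanned 2.30 to 2.66, near the lowest signals.

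Phlda3, which competes with the kinase AKT for membrane lipids and so blunts survival signalling, read 4.81, 4.93, 4.98 and 4.88 in MTAP+/- and 5.40, 5.05, 5.23 and 4.84 in MTAP+/+ livers. The MTAP+/- livers were close together and below MTAP+/+ R1, R2 and R3, as at Cdkn1a probe set 1421679_a_at. The change was -0.23 ± 0.12 (SE; 85.1% of the MTAP+/+ level, 95% interval 70.3 to 103; limma adjusted p = 0.667), -0.14 without MTAP+/+ R1 and -0.33 without MTAP+/+ R4. Zmat3, an RNA-binding zinc finger protein, read 4.82, 5.17, 4.75 and 4.92 against 5.35, 4.94, 5.15 and 4.71. The genotypes interleaved (change -0.12, 95% interval -0.45 to 0.20, limma adjusted p = 0.873), and without MTAP+/+ R1 the change was -0.02. It was -0.23 without MTAP+/+ R4, -0.21 without MTAP+/- R2 and -0.32 without both (unadjusted limma p 0.0379).

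Mouse by mouse the members did not move as a block. MTAP+/+ R1 was the highest liver at 5 of the 18 probe sets (both of Cdkn1a, Bbc3, Phlda3 and Zmat3) and the lowest at 2. MTAP+/+ R4 was the highest at 3, all of Sesn1, and the lowest at 4. Every other mouse was the highest at 1 to 3 and the lowest at 1 to 4. The median deviation of the 18 probe sets from their own means lay between -0.071 and 0.037 in each mouse. MTAP+/- R2 and MTAP+/- R4 were both inside the MTAP+/+ range at each Cdkn1a probe set.

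**Figure D3:**
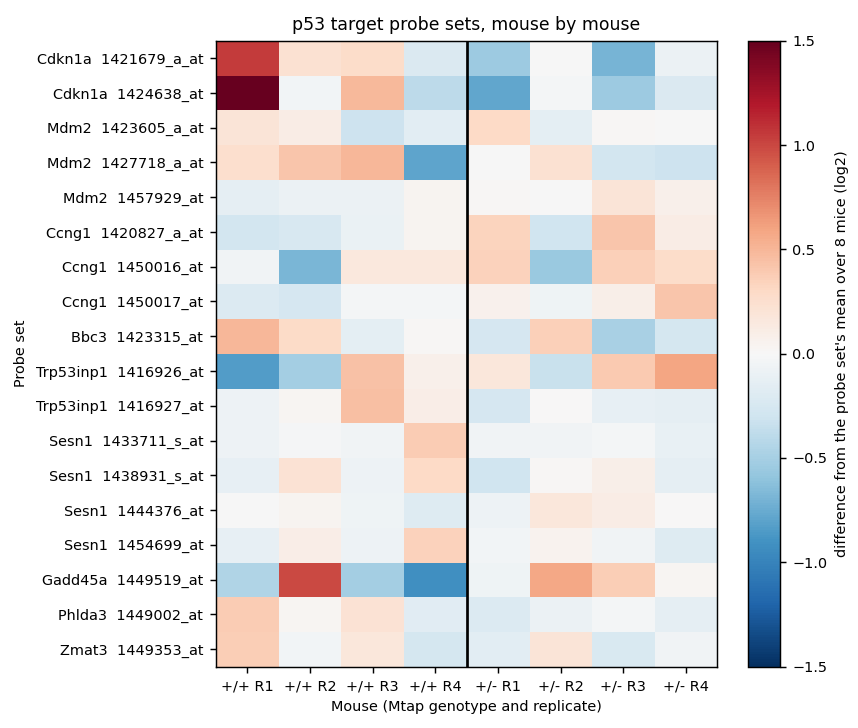
Difference (log2, colour) of each mouse's signal from the mean of the 8 mice, for the 18 p53 target probe sets (rows) in MTAP+/+ and MTAP+/- mice (columns, split by the black line). No column is red or blue throughout, and the strongest colours are Cdkn1a in MTAP+/+ R1 and Gadd45a in MTAP+/+ R2 and R4.

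A wider list of 22 other p53 targets, 20 of them measured by 37 probe sets, had 0 past the adjusted threshold. At an unadjusted limma p under 0.05, 2 probe sets were higher and 4 lower (16.2% of 37, against 8.41% of all probe sets), with a median change of 0.04. The smallest p was at Tigar, which encodes a phosphatase that diverts sugar from glycolysis. Its probe set 1447934_at read 4.03, 4.11, 4.29 and 4.07 in MTAP+/- and 4.59, 4.83, 4.59 and 4.55 in MTAP+/+ livers. The genotypes did not overlap there (change -0.52 ± 0.10, SE; limma adjusted p = 0.181), but at 1435929_at the change was -0.08. At 1439859_at, the brightest Tigar probe set, the MTAP+/- mean was 99.7% of the MTAP+/+ level (unadjusted limma p 0.957). Aen, a nuclease of apoptosis, was at -0.63 ± 0.18 at 1450506_a_at, also without overlap (limma adjusted p = 0.366), while its other 3 probe sets were at -0.01, 0.04 and 0.04. Rrm2b, a ribonucleotide reductase subunit used in DNA repair, was at -0.50 at 1437222_x_at (limma adjusted p = 0.436), a weak signal of 2.09 to 3.12, and at 0.06, -0.04 and 0.12 at its other 3 probe sets, of which the first was 1433773_at.

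Of 22 genes of the p53 family and its regulators, 21 were measured by 61 probe sets, and Trp53 itself was not analysed here. Past the adjusted threshold were 0. At an unadjusted limma p under 0.05 there were 1 higher and 6 lower (11.5% of 61, against 8.41% of all probe sets). The median change was -0.03. Cdkn2a, the neighbour of Mtap whose ARF product inhibits Mdm2, stayed at 2.72 to 3.16 in MTAP+/- and 3.01 to 3.27 in MTAP+/+ livers, weak signals in all (change -0.14 ± 0.12, SE; limma adjusted p = 0.797). Prmt5, an arginine methyltransferase that modifies p53, read 6.77, 6.96, 6.82 and 6.98 against 7.38, 7.21, 7.15 and 7.22. All MTAP+/- livers were below all MTAP+/+ livers (change -0.36 ± 0.10, limma adjusted p = 0.351). Hipk2, a kinase that phosphorylates p53, had 5 of 8 probe sets lower at an unadjusted limma p under 0.05, and 4 of the 8 without overlap. The smallest p was at 1425983_x_at (change -0.35 ± 0.11, limma adjusted p = 0.397). Mdm4, the partner of Mdm2, was at 0.34 at 1460542_s_at (limma adjusted p = 0.492) and between -0.13 and 0.04 at its other probe sets.

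Close relatives of the members were set beside them, and 0 of their 30 probe sets passed the adjusted threshold. At an unadjusted limma p under 0.05 there were 5 higher and 3 lower (26.7% of 30, against 8.41% of all probe sets). The median change was -0.015. Pmaip1, Sesn2 and Mdm4 belong also to the lists above, so their calls are counted again here. Ccng2, the cyclin G relative of Ccng1, read 5.01, 5.09, 5.09 and 5.26 in MTAP+/- and 5.53, 5.80, 5.46 and 5.50 in MTAP+/+ livers. Its genotypes did not overlap, in the direction opposite to the mean difference of Ccng1 (change -0.46 ± 0.11, SE; limma adjusted p = 0.251). In the BCL2 family 0 of 41 probe sets passed, with 7 higher and 2 lower at the unadjusted mark (22.0% of 41) and a median change of 0.01. Bcl2l11 and Pmaip1 stand among the relatives too, so their calls are counted in both lists. Bcl2l11, which encodes BIM, a killer protein like PUMA, read 5.92, 5.48, 5.67 and 5.81 against 4.88, 5.23, 5.18 and 5.12 at 1435448_at. All MTAP+/- livers were above all MTAP+/+ livers (change 0.62 ± 0.12, limma adjusted p = 0.181), and all 5 Bcl2l11 probe sets had a change above 0. Mcl1, a survival protein that BIM and PUMA bind, was at 0.52 at 1437527_x_at (limma adjusted p = 0.462), with 4 of 6 probe sets higher at the unadjusted mark. Pmaip1, which encodes NOXA, was at 0.31 with signals of 2.39 to 3.12 (limma adjusted p = 0.520).

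Cell cycle genes that p21 is known to hold down were examined as the readout nearest to Cdkn1a. Of 49 probe sets for 22 genes 0 passed the adjusted threshold. At an unadjusted limma p under 0.05, 0 were higher and 2 lower (4.08% of 49, against 8.41% of all probe sets). The median change was -0.109, with 32 of 49 below 0. The 3 genes of smallest p were Cdc20, which activates the anaphase ligase, Mcm5 of the replication helicase, and Rrm2, the cycling ribonucleotide reductase subunit. Cdc20 was at -0.38 at 1439394_x_at (limma adjusted p = 0.498) and between -0.88 and -0.38 over its 3 probe sets. Mcm5 was at -0.27 at 1459658_at (limma adjusted p = 0.515), a weak signal of 2.61 to 3.15, and at 0.02 and 0.34 at 1415945_at and 1436808_x_at. Rrm2 at 1448226_at read 4.05, 4.14, 3.83 and 3.62 in MTAP+/- and 5.18, 3.93, 5.17 and 3.78 in MTAP+/+ livers. Its MTAP+/+ R1 and R3 livers stood above the rest, the same mice that were highest at Cdkn1a (change -0.60 ± 0.31, limma adjusted p = 0.651).

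**Figure D4:**
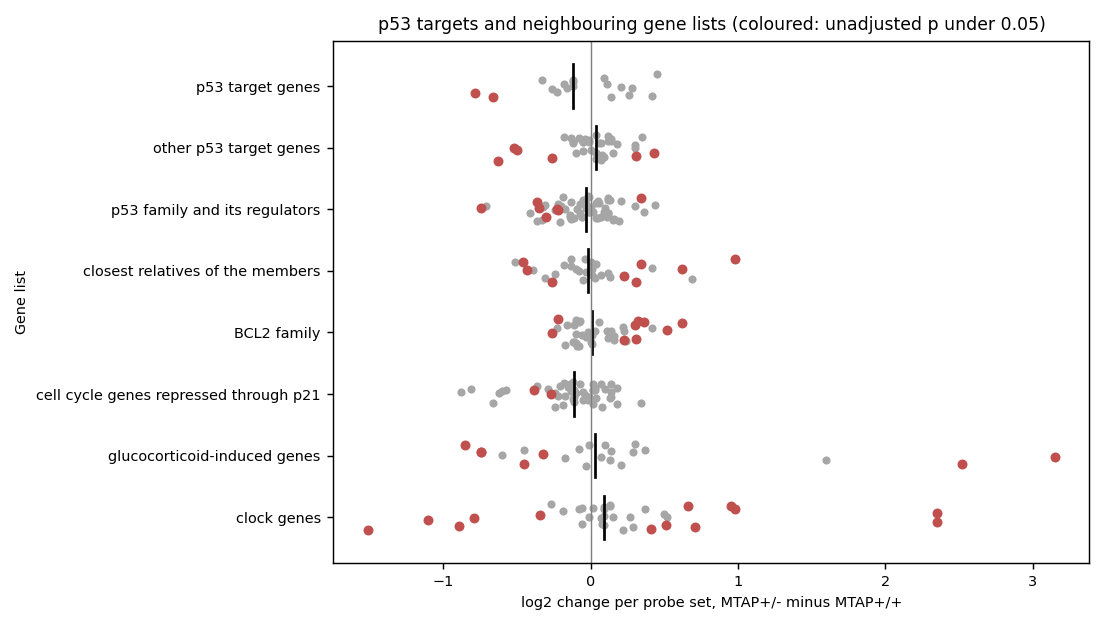
Log2 change (horizontal axis) of each probe set in the p53 target list and 7 neighbouring lists, with coloured points for an unadjusted limma p under 0.05 and black bars for list medians. The p53 target median is -0.12, and 2 of its 18 points, both Cdkn1a, are coloured.

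Clock genes and glucocorticoid-induced genes were counted beside the members, and none of their probe sets passed the adjusted threshold by limma. Of 35 clock probe sets 8 were higher and 5 lower at an unadjusted limma p under 0.05 (37.1%, against 8.41% of all probe sets). The smallest p-values were at Per3 (change 0.98), Arntl (-1.51) and Nfil3 (-1.10), each without overlap and with adjusted limma p of 0.127, 0.127 and 0.178. Over its 6 probe sets Per3 lay between -0.08 and 0.98, and the other Arntl probe set was at -0.06. Cdkn1a is itself known as a clock-controlled transcript in liver. Arntl, the clock activator, read 4.82, 5.56, 4.98 and 5.93 in MTAP+/- and 7.18, 7.05, 6.82 and 6.28 in MTAP+/+ livers. Its lowest livers, MTAP+/- R1 and R3, and its highest, MTAP+/+ R1, were also the lowest and the highest at Cdkn1a. Other livers differed in place. MTAP+/+ R4 was above every MTAP+/- liver at Arntl but lay among them at both Cdkn1a probe sets. MTAP+/+ R2 was second highest at Arntl, and MTAP+/+ R3 was second highest at both Cdkn1a probe sets. Of 22 probe sets for glucocorticoid-induced genes 2 were higher and 5 lower at that mark (31.8%) and the median change was 0.035, with 11 above and 11 below 0. The genes of smallest p were Mt1 (change 3.15), Mt2 (2.52) and Tsc22d3 (-0.85), with limma adjusted p of 0.181, 0.304 and 0.331. The other Mt1 probe set was at 0.30, and Tsc22d3 lay between -0.85 and -0.17 over its 4 probe sets. The part of either list in the members' values was not tested.

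Markers of other liver cells were compared because array signals are from whole tissue, in which fewer cells of a type and less RNA per cell cannot be told apart. Over all 8 hepatocyte markers the summed linear signal was 85650 to 92570 in MTAP+/- and 86320 to 92220 in MTAP+/+ livers. For 10 Kupffer cell and macrophage markers it was 5106 to 7002 against 4408 to 5319. At an unadjusted limma p under 0.05, 5 of 10 were higher, where 4.56% of all probe sets were (lowest limma adjusted p 0.296). Those were Timd4, Cd68, Adgre1, Mpeg1 and Cd5l, with changes of 0.42 to 0.78. Of the rest, Marco was at 0.72 (unadjusted limma p 0.506), Vsig4 at 0.05, C1qa at 0.01, Csf1r at -0.02 and Clec4f at -0.27. For 7 lymphocyte markers the summed signal was 227.4 to 405.6 against 189.8 to 222.7, with 2 of 7 higher (lowest limma adjusted p 0.409). Those were Ptprc (mean 6.86, change 0.75) and Nkg7 (0.32). Ptprc is a gene of leukocytes in general, not of lymphocytes alone, and as the brightest of the 7 it weighed most in the sum. Cd3e and Cd8a were at 0.01 and -0.10, and Cd3g, Ms4a1 and Cd79a at 0.14, 0.15 and 0.22. Cd3g and Ms4a1 lay below the median of all values. Sinusoidal endothelial, stellate, bile duct, neutrophil and erythroid markers had 0 at that mark, and no marker of any cell type passed the adjusted threshold by limma. Their part in the members' values was not tested.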

How the data were processed

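The deposited table holds log2 values per probe set that the authors made with RMA, per the submitters' processing notes. No RMA version or settings are named in the labels used here, and the log2 scale was read from the values (1.64 to 14.7). Of 45101 probe sets, 64 controls were left out. The platform annotation gave 1 symbol for 34945 of the 45037 others, and probe sets of a gene were kept apart. Genotypes were compared on the values as deposited by the two-sided moderated test of limma 3.58.1 in R 4.3.3 (functions lmFit and eBayes, no covariate), with Benjamini-Hochberg adjustment over all probe sets and a threshold of 0.05, after a check on simulated data. That check used independent values and a shift larger than any member change, so it does not show the power for changes of the members' size. Single probe sets were also compared by exact permutation over 70 assignments. p-values treat the 4 mice per genotype as independent, and the number of arrays limits the precision. Named were all members, Mtap, Cdkn2a and the 3 genes of smallest p in each other list, with further probe sets of these. Marker lists served the tissue check. Members and lists were chosen with earlier results of these data known. Alternatives were other eBayes settings, array weights, a filter on dim probe sets, repeated quantile normalization, median centring, a replicate block, leaving out arrays, and leaving out probe sets named _x_at or _s_at.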

Additional observations from a re-analysis of the deposited data

Results flagged for a closer look

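Within a genotype, 2 of 36 sets of 4 values had 1 mouse far from the others, by a rule that chance meets about 1 time in 20. Ccng1 at 1450016_at read 6.84 in MTAP+/- R2, where the other MTAP+/- livers read 7.68 to 7.76. Sesn1 at 1433711_s_at read 7.27 in MTAP+/+ R4, where the other MTAP+/+ livers read 6.81 to 6.87.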

How the results depend on the processing

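Over 16 alternatives the members had 0 probe sets past the adjusted threshold in each, as in the fit reported. Of the 18 changes 1 turned sign, Mdm2 at 1423605_a_at (0.09), which lay between -0.0044 and 0.16 when 1 mouse was left out. The other eBayes settings, the filters and the replicate block could not turn a sign, as they leave each change as it was. Each filter also dropped some member probe sets. The count of members at an unadjusted p under 0.05 (2 in the fit reported) was 1 with dim probe sets left out or with trend and robust settings, 5 with array weights, 4 with the replicate number as a block, and 0 to 8 when 1 mouse was left out, highest without MTAP+/- R2. Over all probe sets 16 passed the adjusted threshold, 25 with the replicate block, and 5 to 21 when 1 mouse was left out. The labels used here do not say whether replicate numbers mark pairs, and they were not taken as pairs. Deviations of same-numbered mice correlated at -0.0737, 0.2244, 0.0049 and 0.2271, and those of differently numbered mice at -0.3758 to 0.1862. These values do not settle whether the numbers mark pairs. For the alternatives, the share of all probe sets at the unadjusted mark is not given here, so the member counts have no background beside them. Without MTAP+/- R2 and MTAP+/+ R4 together, 10 members had an unadjusted limma p under 0.05, and 430 of all probe sets passed the adjusted threshold. Those mice were singled out by their expression, which lay on the other genotype's side on component 1 but not on component 2. Leaving them out therefore raises the counts by construction. The cause of the other changes was not tested. Weak signals, such as Mdm2 at 1457929_at, limit what can be seen there.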

Other observations

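Genes grouped by sequence instead of by name gave a comparison that does not depend on which p53 targets are listed. A full p53 site with at most 2 mismatches lay in a start window of 106 genes, Cdkn1a and Ccng1 among them, and 65 of these were measured by 128 probe sets. By limma 0 passed the adjusted threshold, and at an unadjusted p under 0.05 there were 6 higher and 4 lower, 7.81% against 8.41% of all probe sets. The median change was 0.036. Outside Cdkn1a the largest changes among these 10, named after their values were seen, were Morc3, a nuclear chromatin protein, at 0.78 ± 0.18 (SE; 1420091_s_at, limma adjusted p = 0.248), and Etnk1, an ethanolamine kinase, at 0.75 ± 0.18 (1430996_at) and 0.43 ± 0.10 (1433514_at; limma adjusted p = 0.260 for each).

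Several cell cycle probe sets were high in MTAP+/+ R3. Cdc20 at 1439377_x_at read 4.33, 4.73, 4.26 and 4.33 in MTAP+/- and 5.88, 4.02, 6.96 and 4.32 in MTAP+/+ livers (change -0.88, limma adjusted p = 0.704). Ccnb2, a mitotic cyclin, read 5.84 in MTAP+/+ R3 at 1450920_at and 2.85 to 4.48 in the other 7 livers. These probe sets were named after their values were seen.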
